A study of Mus musculus with 6 samples.

Results

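The 10 genes described here are antioxidant and glutathione genes that the transcription factor NRF2 is known to drive: Hmox1, Nqo1, Gclc, Gclm, Txnrd1, Srxn1, Slc7a11, G6pdx, Gsr and Prdx1. They were selected by symbol, as a set chosen with earlier results of these data known, and all 10 were found among the 16671 genes of the deposited table. Their expression was measured by RNA sequencing in fibro-adipogenic progenitors (FAPs), the stromal cells between muscle fibres, isolated by cell sorting from hind limb muscle of wild-type mice aged 4 to 5 months. The cells received vehicle (control, 3 libraries) or C1q at 100 µg/ml (3 libraries). C1q is the protein that recognises targets for the classical complement pathway. The labels give neither the length of exposure nor the source of the C1q, and do not tell if each replicate was its own mouse or culture, so that p-values cover only sample-to-sample spread, part or all of which may be technical. The comparison asks how C1q changes gene expression in FAPs.

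In resting cells NRF2, the product of Nfe2l2, is held in the cytoplasm and marked for degradation by KEAP1 and its CUL3 and RBX1 ubiquitin ligase. When oxidants or electrophiles modify KEAP1, NRF2 accumulates, pairs with a small MAF protein and binds antioxidant response elements in DNA. BACH1 competes with it there and represses, above all, Hmox1. The targets make glutathione, reduce peroxiredoxins and thioredoxin, supply NADPH and break down haem and quinones.

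The libraries held 5379209 (control 3) to 38861152 (control 1) reads on genes of the table, so control 3 is the least precise. The stromal genes Pdgfra (normalised read count 19529 ± 4229 in controls, SD, n = 3 here and for all group values) and Dcn (13523) were abundant, although the extraction protocol in the labels names muscle stem cells. The summed level of 10 FAP markers was 358712 to 485313 in controls and 641018 to 823435 with C1q, so the groups did not overlap, and 7 of the 10 were called higher and 0 lower. The summed level of 12 macrophage and immune markers was 548 to 812 in controls and 483 to 910 with C1q, and 1 of them, Cd14, was called lower. Ptprc was not analysed here. The summed level of 7 muscle fibre markers was 57454, 33657 and 15266 in controls 1, 2 and 3, against 10861 to 17065 with C1q, with 2 called lower and 1 higher. The summed level of 8 satellite cell and myoblast markers was 10177 to 24740 in controls and 10767 to 12613 with C1q, with 4 called lower and 1 higher. The sum of 5 tenocyte markers was 9636 to 35688 in controls and 44472 to 96309 with C1q (2 called higher, 1 lower), and that of 8 glial and mural markers 29522 to 37014 and 23786 to 25220 (2 higher, 1 lower), so neither overlapped between the groups. The sum of 7 endothelial markers was 748 to 1384 and 755 to 1373, with 0 called. Of 6 red blood cell markers only Alas2 was analysed here, at a value of 1.95 to 10.8. No gene of the deposited table could stand at 0 in every library, as the lowest gene mean in it was 1.00.

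The DNA just upstream of the members is shown because the antioxidant response element is the sequence through which NRF2 acts. Windows of 250 bases before an annotated RefSeq start (GRCm38.p6) were at hand for 7 members (9 windows), and Hmox1, Gclc and Gsr had none. The core TGACNNNGC, searched on both strands, was present at 4 of these 7 genes, in 4 of the 9 windows. Of all 32851 windows of this length 10.2% hold it. In each of the 4 windows, printed 5′ to 3′ along the gene with the core in capitals, it lies on the strand opposite to the gene and so appears as its reverse complement. They are Prdx1 (chr4:116685349-116685598, + strand), Gclm (chr3:122245307-122245556, + strand), the second of 3 starts of Txnrd1 (chr10:82858956-82859205, + strand) and G6pdx (chrX:74428881-74429130, - strand).
Prdx1: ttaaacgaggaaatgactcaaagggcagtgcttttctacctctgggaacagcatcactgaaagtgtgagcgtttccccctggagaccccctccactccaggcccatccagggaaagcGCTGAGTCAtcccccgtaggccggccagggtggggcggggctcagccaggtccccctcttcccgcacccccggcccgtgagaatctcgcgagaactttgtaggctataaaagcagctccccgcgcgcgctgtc
Gclm: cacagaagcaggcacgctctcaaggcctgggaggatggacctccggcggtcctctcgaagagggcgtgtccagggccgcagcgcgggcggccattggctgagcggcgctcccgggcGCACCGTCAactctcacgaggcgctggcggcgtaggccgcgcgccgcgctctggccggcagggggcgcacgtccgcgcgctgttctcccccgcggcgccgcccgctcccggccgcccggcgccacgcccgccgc
Txnrd1: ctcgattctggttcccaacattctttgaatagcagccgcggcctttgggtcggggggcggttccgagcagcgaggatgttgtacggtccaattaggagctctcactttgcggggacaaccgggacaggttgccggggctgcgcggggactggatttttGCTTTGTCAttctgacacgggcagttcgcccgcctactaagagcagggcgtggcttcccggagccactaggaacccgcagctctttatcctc
G6pdx: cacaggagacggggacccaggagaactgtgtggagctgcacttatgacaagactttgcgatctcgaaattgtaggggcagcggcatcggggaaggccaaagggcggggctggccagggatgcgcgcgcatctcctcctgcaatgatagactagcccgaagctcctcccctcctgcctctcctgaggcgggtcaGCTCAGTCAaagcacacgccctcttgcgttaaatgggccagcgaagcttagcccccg

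In Prdx1 the core reads TGACTCAGC on its own strand, 133 to 125 bases before the start, and contains the AP-1 element TGACTCA. That element, which both strands read alike apart from its central base, was found at 2 of the 7 genes, Prdx1 and Srxn1, and in 4.46% of all windows. Of 2 AP-1 elements in Srxn1, 1 is followed by GC, giving TGAGTCAGC, which 0.347% of all windows hold. This differs from TGACTCAGC in Prdx1 only at the central base of the AP-1 element, and the search for TGACNNNGC did not count it. The Slc7a11 window held the amino acid response element TGATGNAA, through which ATF4 acts, on each strand, and 3.45% of all windows hold that motif. A shorter stretch ending at the start is printed for each, Slc7a11 (chr3:50443614-50443713, - strand) with the amino acid response elements in capitals and Srxn1 (chr2:152105404-152105523, + strand) with the AP-1 elements in capitals. A match describes the letters in these windows and not occupancy.
Slc7a11: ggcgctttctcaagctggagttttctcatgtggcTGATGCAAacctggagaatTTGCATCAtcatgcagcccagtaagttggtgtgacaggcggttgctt
Srxn1: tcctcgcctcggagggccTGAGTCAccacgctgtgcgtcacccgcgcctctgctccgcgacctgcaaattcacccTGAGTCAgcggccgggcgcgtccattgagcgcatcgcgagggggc

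Of the 10 NRF2 targets 7 were lower with C1q and 0 were higher, at a Benjamini-Hochberg adjusted p below 0.05 over all 16671 genes (limma-trend). Over all genes the test called 18.7% lower and 19.7% higher. The median log2 fold change was -0.55 for the members and 0.03 for all genes, with every fold change taken from log2(value + 1). The 3 C1q libraries lay below all 3 controls for 8 members, an arrangement found at 25.4% of all genes. The members took 0.123%, 0.124% and 0.106% of the reads in controls 1, 2 and 3 and 0.0745%, 0.0695% and 0.0689% in C1q libraries 1, 2 and 3. These shares did not overlap (exact two-sided permutation p = 0.1, and 0.2 adjusted over 4 such measures). With the libraries taken as unpaired, 0.1 is the smallest p that 3 against 3 allow. Prdx1 and Hmox1 weigh most in the difference between these shares. Their mean normalised read counts went from 11700 to 6533 and from 4764 to 1822. In bulk RNA, fewer cells expressing a gene and less RNA per cell cannot be told apart. The sums of the FAP and tenocyte markers were higher and that of the glial and mural markers lower in all 3 C1q libraries than in all 3 controls, and the part of these markers in the members' falls was not tested.

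**Figure D1:**
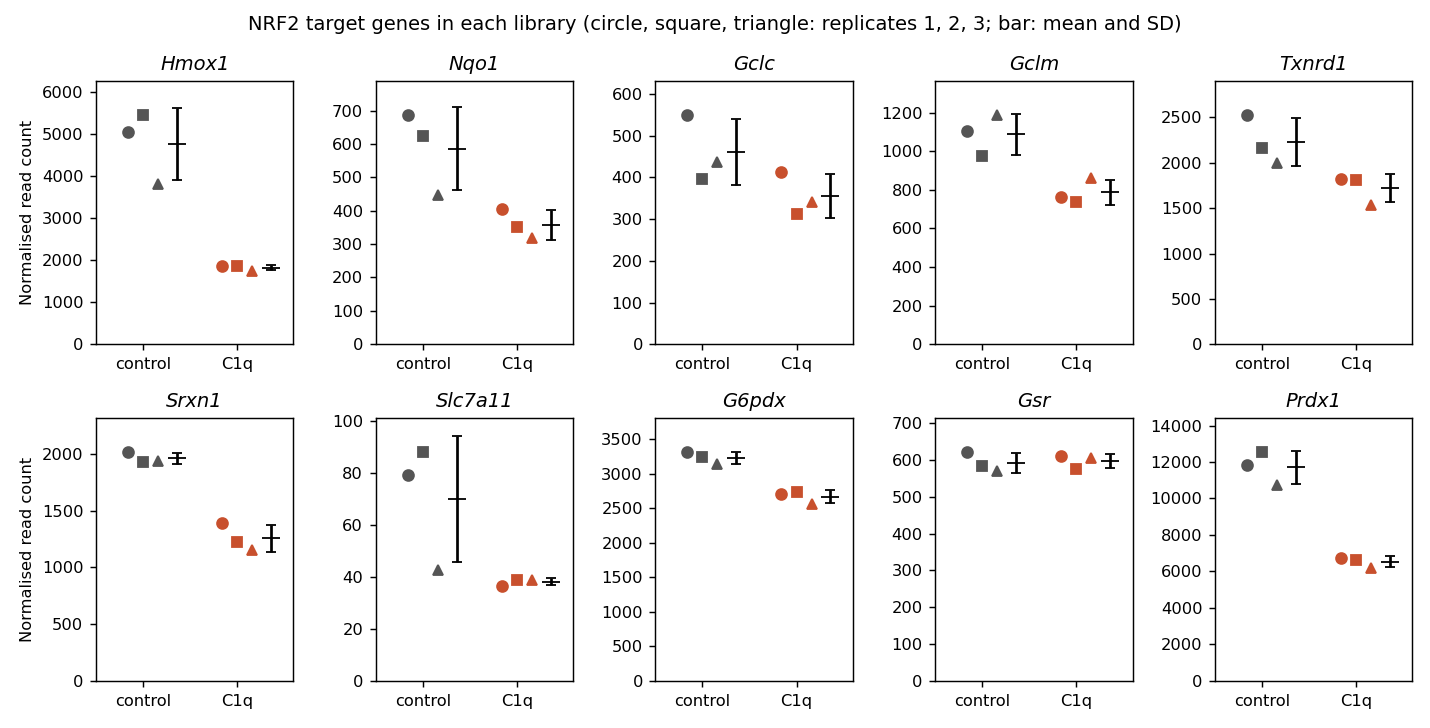
Normalised read count (vertical axes, from 0) of each NRF2 target in the 3 control libraries (grey) and the 3 C1q libraries (orange), with marker shapes for replicate numbers and bars for the mean and SD. The groups are apart for 8 genes, overlap for Gclc and Gsr, and for Slc7a11 control 3 lies close to the C1q libraries.

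Hmox1 encodes haem oxygenase 1, the inducible enzyme that splits haem into biliverdin, iron and carbon monoxide (Entrez gene 15368, chromosome 8, 75093618 to 75100593, coordinates of genes in GRCm38). Its normalised read count was 5040, 5444 and 3809 in controls 1, 2 and 3 and 1862, 1852 and 1752 in C1q libraries 1, 2 and 3. The C1q libraries were close together and all far below the lowest control. The fall was 2.59-fold (log2 fold change -1.37 ± 0.13 SE, adjusted p 3.43e-04, limma-trend), the largest of the members, and 2.23% of all genes had a log2 fold change as low or lower. After a loess fit on transcript length was subtracted in each library, the log2 fold change of Hmox1 was -1.10, against -1.33 for Slc7a11. Hmox2, the constitutive isoenzyme, stood at 819 and 817 on average, with no call (adjusted p 0.982). The ratio of Hmox1 to Hmox2 per transcript length was 7.26, 7.36 and 4.80 in controls and 2.38, 2.67 and 2.35 with C1q (exact two-sided permutation p = 0.1, and 0.2 adjusted). Without control 1, whose muscle fibre markers were highest, the log2 fold change of Hmox1 was -1.32.

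Nqo1 encodes a quinone reductase that keeps quinones from redox cycling (Entrez gene 18104, chromosome 8, 107388225 to 107403205). It stood at 686, 624 and 446 in controls and at 406, 351 and 318 with C1q. The lowest control was only slightly above the highest C1q library. The fall was 1.61-fold (log2 fold change -0.69 ± 0.17 SE, adjusted p 0.0157). The call was lost without control 2 (adjusted p 0.0505), C1q 2 (0.0528) or C1q 3 (0.0604). After a loess fit on transcript length was subtracted in each library (length trend removed), the change was -0.41 (adjusted p 0.0765, but 0.0133 with the replicate block as well), and the Nqo1 transcript is short, at 1553 bases.

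Of the 4 members that supply, make and recycle glutathione, only Gclm passed the test. Gclm, the modifier subunit of glutamate-cysteine ligase, the rate-limiting enzyme of glutathione synthesis, stood at 1103, 974 and 1186 in controls and 762, 738 and 861 with C1q. The groups were apart, and the fall was 1.38-fold (log2 fold change -0.46 ± 0.10 SE, adjusted p 0.00799). It was -0.76 with the length trend removed. Exons of Gm17494 on the opposite strand share 296 bases with Gclm exons and those of Gm6061 on the same strand 244, so reads there are uncertain. Gclc, the catalytic subunit, stood at 549, 397 and 438 in controls and at 414, 312 and 340 with C1q, and the groups overlapped. Its log2 fold change of -0.37 ± 0.15 (SE) did not pass (adjusted p 0.0927), but did with the replicate number as a block (limma, adjusted p 0.0146). In each group replicate 1 was highest and replicate 2 lowest. The ratio of Gclc to Gclm per transcript length was 0.694 ± 0.108 in controls and 0.740 ± 0.128 with C1q (n = 3 each, exact two-sided permutation p = 0.6).

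Slc7a11 encodes the cystine carrier xCT, which brings in the cysteine for glutathione, and was the lowest of the members. It stood at 79.2, 88.0 and 42.5 in controls, from 136, 114 and 10 reads, and at 36.6, 39.0 and 38.8 with C1q, from 52, 40 and 52 reads. Controls 1 and 2 were at about the same level, while control 3 was only just above the C1q libraries. The log2 fold change of -0.79 ± 0.30 (SE) did not pass (adjusted p 0.0697). Without control 3 it was -1.11 (adjusted p 0.00312), and count tests on the recovered reads called it (edgeR -0.98, adjusted p 0.0168, and DESeq2 -0.96, adjusted p 0.00978). With the length trend removed it was -1.33 (adjusted p 0.0145). Of the 21 alternatives 9 called Slc7a11 lower and 12 did not. Among the latter were all libraries thinned to equal depth (-0.64, adjusted p 0.253) and limma with the replicate block (adjusted p 0.0618). A 373-base stretch of its longest GENCODE transcript matches the tubulin gene Tuba1b at 96.2% identity, so part of its few reads could not be assigned with certainty. Slc3a2, the chain with which xCT pairs, was called lower (3283 to 2375 on average, log2 fold change -0.47, adjusted p 0.00503). The ratio of Slc7a11 to Slc3a2 per transcript length was 0.00642 ± 0.00191 in controls and 0.00491 ± 0.00026 with C1q (exact two-sided permutation p = 0.4, and 0.533 adjusted).

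Gsr encodes glutathione reductase, which returns oxidised glutathione to its reduced form (Entrez gene 14782, chromosome 8, 33653238 to 33698162). Its normalised read count was 621, 582 and 570 in controls and 611, 575 and 606 with C1q. The groups overlapped throughout. The log2 fold change was 0.02 ± 0.07 (SE, adjusted p 0.888). Gsr was the only member whose sign differed between analyses, and its value ranged from -0.05 to 0.08 over the 21 alternatives.

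The 3 members that act on thioredoxin and the peroxiredoxins were all lower. Prdx1, a peroxiredoxin that reduces hydrogen peroxide and the most abundant member (Entrez gene 18477, chromosome 4, 116685599 to 116700000), stood at 11830, 12544 and 10726 in controls and at 6754, 6650 and 6195 with C1q. The C1q libraries were all well below the lowest control, and the fall was 1.79-fold (log2 fold change -0.84 ± 0.08 SE, adjusted p 4.08e-04). A stretch of 597 bases matches processed pseudogenes, Gm21399 and Gm7204, at 98.3% and 97.5% identity. Srxn1, the sulfiredoxin that rescues over-oxidised peroxiredoxins (Entrez gene 76650, chromosome 2, 152105524 to 152111376), stood at 2016, 1930 and 1934 in controls and at 1389, 1228 and 1153 with C1q. The controls nearly coincided, and the fall was 1.56-fold (log2 fold change -0.64 ± 0.08 SE, adjusted p 8.96e-04). Txnrd1, the cytosolic thioredoxin reductase, stood at 2523, 2168 and 1998 in controls and at 1820, 1809 and 1540 with C1q. Its groups were apart by a small margin, at a log2 fold change of -0.37 ± 0.11 (SE, adjusted p 0.0288). Without control 1, control 2, C1q 1, C1q 2 or C1q 3 in turn the adjusted p of Txnrd1 was 0.0744, 0.0547, 0.0527, 0.0563 and 0.101, and with a constant prior variance it was 0.0759.

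G6pdx encodes glucose-6-phosphate dehydrogenase, the first enzyme of the pentose phosphate pathway and a main source of NADPH (Entrez gene 14381, chromosome X, 74409483 to 74428880). It stood at 3313, 3241 and 3142 in controls and at 2708, 2739 and 2557 with C1q. The spread within each group was small beside the gap, so the change was called although it was the smallest of the 7 (1.21-fold lower, log2 fold change -0.28 ± 0.06 SE, adjusted p 0.00945). Exons of Ikbkg on the opposite strand share 418 bases with G6pdx exons, and whether the counting used strand is not given in the sources used here. Nqo1, Txnrd1, G6pdx and Gsr (not called) were each highest in control 1 and lowest in control 3, as were the muscle fibre markers. Hmox1, Prdx1 and Slc7a11 were highest in control 2 but likewise lowest in control 3, while Gclc, Gclm and Srxn1 were lowest in control 2. The part of those markers in the falls was not tested, and without control 1 the members' median was -0.51 with 6 called lower, Txnrd1 no longer among them.

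**Figure D2:**
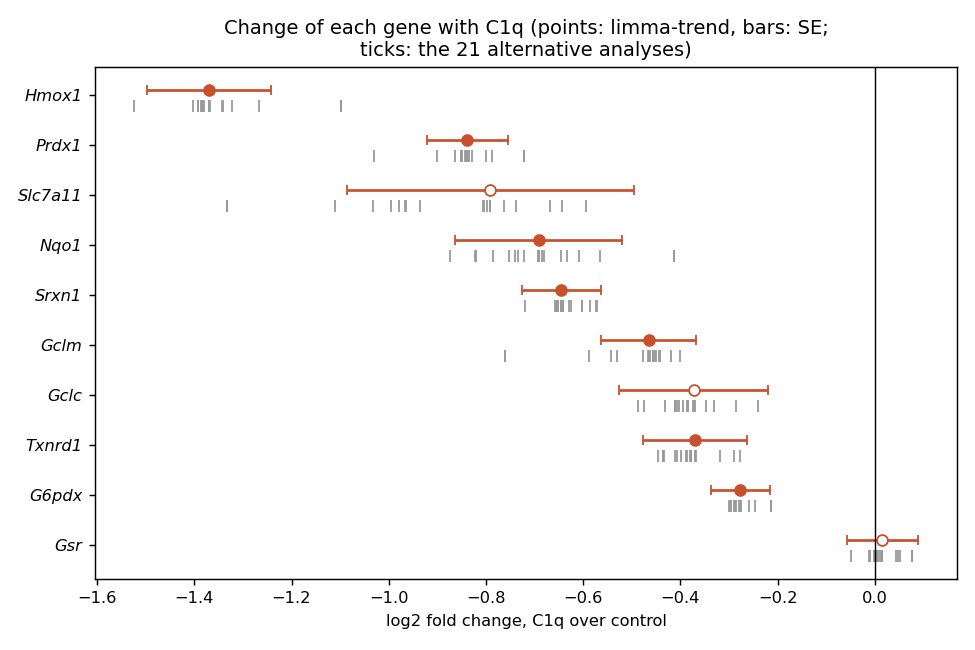
Log2 fold change of each NRF2 target with C1q (horizontal axis), with filled points for genes called lower, open points for genes not called, bars for the SE and grey ticks for the 21 alternative analyses. Hmox1 stands lowest at -1.37, 9 genes lie left of 0 in every analysis, and Gsr straddles 0.

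Levels of different members were compared per length, as TPM (reads per base of transcript, scaled to the same total in every library) from the recovered reads and the longest GENCODE transcript. The order in controls was Prdx1 (587 ± 35.1), Hmox1 (349 ± 56.8), G6pdx (140 ± 4.19), Srxn1 (80.3 ± 3.10), Txnrd1 (70.9 ± 8.77), Nqo1 (43.4 ± 8.96), Gsr (25.5 ± 1.34), Gclm (22.4 ± 2.67), Gclc (15.5 ± 2.85) and Slc7a11 (0.870 ± 0.288). Among neighbours in this order, the ranges over the control libraries overlapped only for Srxn1 with Txnrd1 and for Gsr with Gclm. With C1q the ranges of Txnrd1 and Srxn1 and of Nqo1 and Gsr overlapped. Hmox1, at 158 ± 4.08 TPM with C1q, stood close above G6pdx at 137 ± 3.27, whereas in controls its lowest library (284) was far above the highest G6pdx library (145). The log2 change in TPM, C1q over control, had a median of 0.18 over all genes with a length. TPM therefore served for levels within a group and not for the changes.

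**Figure D3:**
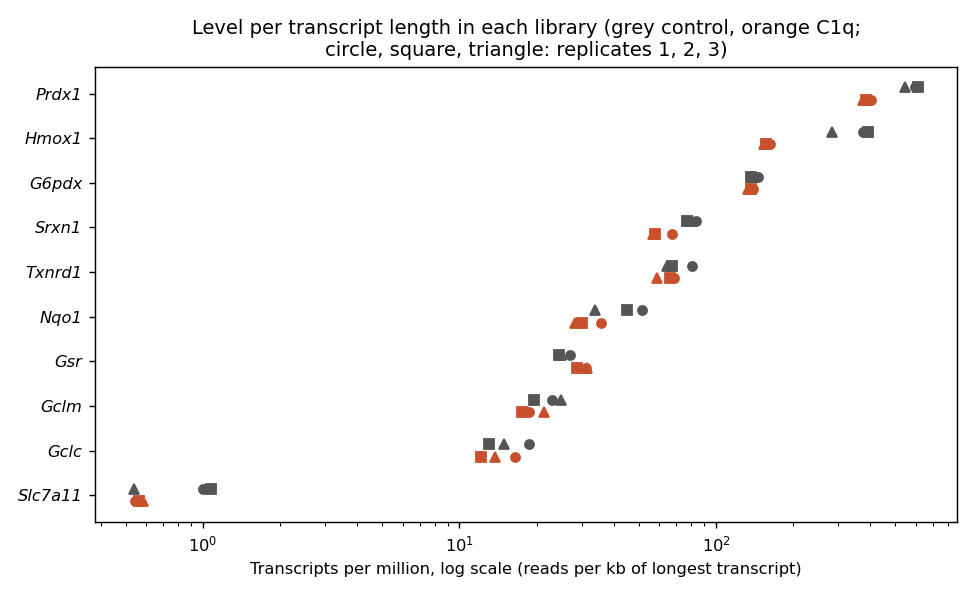
Level of each NRF2 target per transcript length (horizontal log axis, TPM) in each control (grey) and C1q (orange) library. Hmox1 comes close to G6pdx with C1q, at 158 against 137 TPM, and Slc7a11 is lowest in both groups.

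The regulators of the pathway moved both ways. Of 12 genes of NRF2 and its regulators 4 were higher, 4 were lower and 4 were not called, with a median log2 fold change of -0.03. Nfe2l2, which encodes NRF2 itself, was at 2590 ± 124 in controls and rose to 3149 ± 110 with C1q (0.28, adjusted p 0.0113), a call lost without C1q 1 (adjusted p 0.0528) and at 0.12 (adjusted p 0.231) with a GC trend removed and the replicate block. Bach1, the repressor, rose from 854 ± 44.9 to 1032 ± 49.3 (0.27, adjusted p 0.0207), but was at -0.05 (adjusted p 0.616) with the length trend removed and at 0.16 (adjusted p 0.152) with a GC trend removed and the replicate block, and the call was lost without control 1 (0.0606), C1q 1 (0.0513), C1q 2 (0.0884) or C1q 3 (0.0579), or with a constant prior variance (0.0509). Keap1, at 1376 ± 70.2 in controls and 1500 ± 53.0 with C1q, did not pass (0.13, adjusted p 0.180), but did with a GC trend removed and the replicate block (0.20, adjusted p 0.0470). The small MAF genes differed, as Mafk rose (0.42, adjusted p 0.00461, but 0.28, adjusted p 0.101, with all libraries thinned to equal depth) and Mafg fell (-0.49, adjusted p 0.00388). Rbx1, of the ligase, fell (-0.55, adjusted p 6.08e-04), and Park7, which encodes DJ-1, fell (-0.48, adjusted p 0.00165) but was at 0.05 (adjusted p 0.644) with the length trend removed. The remaining calls, named after their values were seen, were Maff (-0.79) and Nfe2l1 (0.24). The count of higher regulators was 2 with the length trend removed, 1 without C1q 1, and 2 without control 1, C1q 2 or C1q 3.

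Other glutathione genes were lower at 9 of 19 and higher at 2 (median -0.41). Gpx4, the peroxidase that reduces lipid peroxides, fell from 5332 ± 617 to 3053 ± 198 (-0.80 on the log2 scale, adjusted p 8.64e-04), but was at -0.30 with the length trend removed. Chac1, which degrades glutathione, fell from 212 ± 34.8 to 79.1 ± 10.6 (-1.41, adjusted p 9.00e-04), so genes of synthesis and of breakdown were among those lower. Esd, which acts on a glutathione adduct of formaldehyde, fell (-0.76, adjusted p 0.00119). The higher genes were Oplah, which recycles 5-oxoproline to glutamate (0.66, adjusted p 8.30e-04), and Glrx (0.24), named after its value was seen, and only 1 was higher without control 3, C1q 1, C1q 2 or C1q 3. Of 19 glutathione S-transferases 7 were lower and 1 was higher (median -0.21), with Gsto1 falling from 2528 ± 385 to 990 ± 77.6 (-1.34, adjusted p 3.25e-04) and Gsta4 from 695 ± 158 to 361 ± 68.8 (-0.94, adjusted p 0.00755, and with the length trend removed -0.43, adjusted p 0.0805, or 0.0102 with the replicate block as well). With the length trend removed 1 was lower and 3 were higher, Gstp1 (-0.63, adjusted p 5.57e-04) was at -0.04 (adjusted p 0.689), and Gstm5 (-0.34, adjusted p 0.00399) was at 0.12 (adjusted p 0.188). The lower count was 4 without C1q 1 or C1q 3, and the single higher gene, Gstt3 (0.36, named after its value was seen), was not called without control 1, control 3 or any 1 of the C1q libraries. Members of this family are similar in sequence, so reads may be split between them.

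Thioredoxins, peroxiredoxins and related genes other than the members were lower at 8 of 18 and higher at 4 (median -0.34). Txn1, the cytosolic thioredoxin that TXNRD1 reduces, fell from 4256 ± 433 to 2446 ± 58.9 (log2 fold change -0.79, adjusted p 5.16e-04). Prdx2 and Prdx5 fell as well (-0.63 and -0.55, adjusted p 4.12e-04 and 5.64e-04). With the length trend removed Txn1 was at -0.32, Prdx2 at -0.37 and Prdx5 at -0.35. Sesn3, a sestrin, rose from 452 ± 52.3 to 1165 ± 161 (1.36, adjusted p 3.34e-04, and 0.83 with the length trend removed). The other higher genes, named after their values were seen, were Txnip, which encodes a thioredoxin-binding inhibitor (6963 to 16454 on average, 1.28), Msrb3 (0.55) and Sesn1 (0.41). Among 6 genes of superoxide and peroxide removal, 3 were lower and 2 higher (median 0.06). Sod1 (-0.45, adjusted p 0.00289) and Sod2 (-0.29, adjusted p 0.0165), the cytosolic and mitochondrial dismutases, fell, while Sod3, the extracellular one, rose from 7734 ± 2867 to 15044 ± 1011 (1.02, adjusted p 0.00950) and Pon2 rose (0.41, adjusted p 0.00515, but 0.23, adjusted p 0.0745, with a GC trend removed and the replicate block). The other lower gene was Ccs (-0.36, named after its value was seen). Sod2 was at -0.61 with the length trend removed. It was not called with a GC trend removed and the replicate block (-0.23, adjusted p 0.0532) or without control 1 (0.0537), C1q 1 (0.0696) or C1q 3 (0.0559), and each time 1 gene of the 6 was lower.

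NADPH-producing enzymes were lower at 10 of 19 and higher at 1 (median -0.39). Taldo1 and Pgd, of the pentose phosphate pathway that G6PDX starts, both fell. Taldo1 went from 2303 ± 180 to 1349 ± 67.0 (-0.77 on the log2 scale, adjusted p 4.50e-04, but -0.42 with the length trend removed). Pgd went from 6235 ± 125 to 3719 ± 338 (-0.75, adjusted p 5.08e-04). Idh2, the mitochondrial NADP-dependent isocitrate dehydrogenase, fell (-0.69, adjusted p 0.00164), and Nadk2, the mitochondrial NAD kinase, was the gene that rose (0.92, adjusted p 0.00117). Haem and iron genes were lower at 7 of 15 and higher at 1 (median -0.35), but lower at 3 with the length trend removed, 4 without control 1 or C1q 2 and 3 without C1q 3. Tfrc, the transferrin receptor, fell from 1151 ± 293 to 436 ± 34.3 (-1.37, adjusted p 8.03e-04), the iron importer gene Slc11a2 fell (-0.69, adjusted p 0.00192), and Ncoa4, which delivers ferritin to lysosomes, rose (0.54, adjusted p 0.00239, and 0.33 with the length trend removed). Urod, of haem synthesis, fell (-0.41, adjusted p 0.00319) but was at -0.11 (adjusted p 0.298) with the length trend removed.

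The list for quinone and aldehyde detoxification was split, with 7 of 25 lower (28%) and 6 higher (24%) and a median of 0.03. The shares over all genes were 18.7% lower and 19.7% higher, also with a median of 0.03, so this list was not far from the whole table. The aldo-keto reductase genes Akr1b3 (log2 fold change -1.10, adjusted p 0.00148), Akr1b10 (-0.84, adjusted p 5.91e-04, and -0.50 with the length trend removed) and Akr1a1 (-0.47, adjusted p 0.00189) fell, of which Akr1b3 and Akr1b10 belong to a family of similar sequences. Adh7, an alcohol dehydrogenase, rose from 79.6 ± 19.7 to 276 ± 80.4 (1.77, adjusted p 0.00181). The higher count was 2 without control 1, C1q 2 or C1q 3. The members' share called lower, 7 of 10, was larger than that of each of these 8 lists, but the lists were chosen with earlier results of these data known and the difference was not tested.

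**Figure D4:**
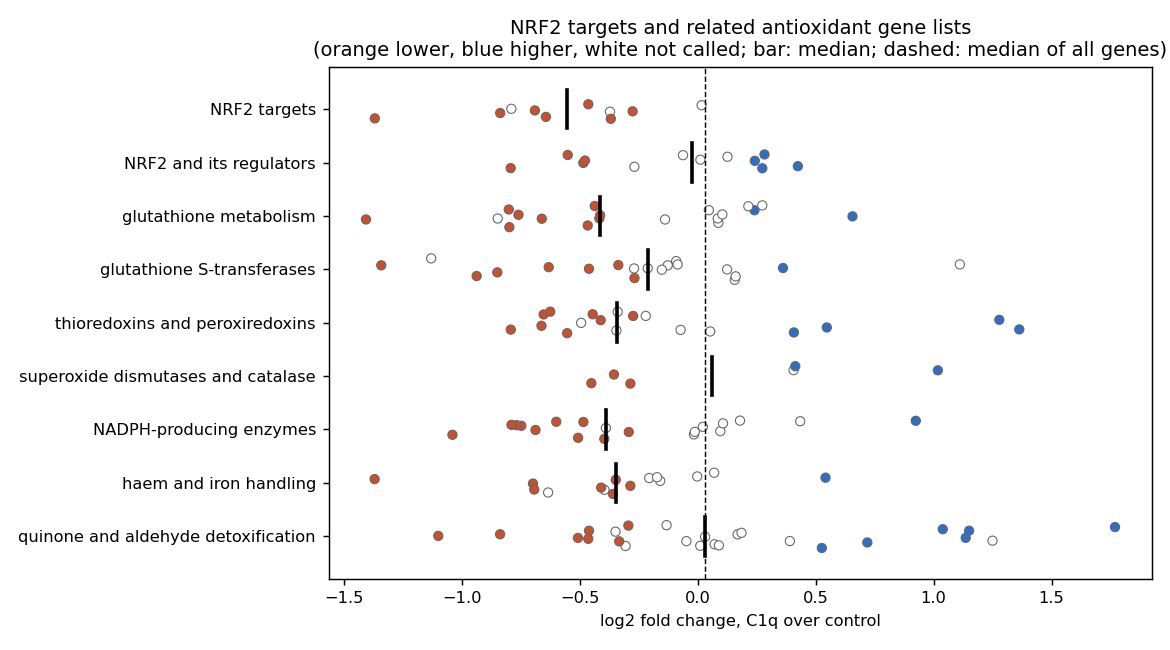
Log2 fold change with C1q (horizontal axis) of every gene of the NRF2 target list and of 8 related lists, orange where lower, blue where higher and white where not called, with a bar at each list's median and a dashed line at the median of all genes (0.03). The NRF2 targets have the lowest median, -0.55, and the detoxification list is spread on both sides of 0.

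The genes whose pattern over the 6 libraries was most like the median pattern of the members, among 10953 other genes with a mean of at least 100, were Fam104a, Acot7, Fam118b, Flcn and Dtx2. Their centred log2 values differed from it by 0.0471 to 0.0534 (root mean square), less than those of any member, of which Srxn1 was closest at 0.0927 and Hmox1 farthest at 0.436. With 2 groups of 3 libraries, this likeness is mainly a like difference between the groups. These genes were taken as the closest of 10953, so their lying closer than any member is no result about the members.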

How the data were processed

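The authors deposited a table with 1 normalised read count signal per gene and library: reads counted with featureCounts, per the file headers, divided by a factor for each library. The submitters' processing notes name Trimmomatic, HISAT2, featureCounts, DESeq2 and mm10, without parameters. All values returned to whole reads, within 0.001 of a read, when multiplied by their library's factor, and these recovered reads give the depth of each library. Of 16671 genes 16077 matched a symbol by gene identifier, and 14933 (89.6%) a GENCODE transcript for length and GC content.

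The 3 control and 3 C1q libraries were compared with limma-trend (limma 3.58.1, R 4.3.3) on log2(value + 1), over all genes, with Benjamini-Hochberg adjusted p below 0.05 as the call. The lowest gene mean was 1.00, so the minimum mean of 1 removed 0 genes and the alternative without a filter repeated the main fit. The tests were also run on simulated data without length or GC trends or replicate effects, and nothing is concluded from that run here. The alternatives were 3 tests of the recovered reads (edgeR 4.0.16, DESeq2 1.42.0, limma-voom), other pseudocounts, filters and prior variance, a replicate block, loess trends on transcript length or GC content removed in each library, thinning to 5379209 reads, and each library left out in turn. Same-numbered libraries deviated together (correlations 0.123, 0.175 and 0.132 across genes for numbers 1, 2 and 3), but the labels do not say that they pair. The main fit and the permutation tests therefore took the libraries as unpaired, and the replicate block was used only in alternatives.

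The members and lists were chosen with earlier results of these data known. Named are all members, from each other list up to 4 genes with the lowest p, the regulators Nfe2l2, Keap1 and Bach1 in any case, and the 5 genes with a mean of at least 100 whose pattern is closest to the members' median. Promoter sequences are from RefSeq (GRCm38.p6).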

Additional observations from a re-analysis of the deposited data

How the results depend on the processing

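Over the 21 alternatives 5 to 9 of the 10 NRF2 targets were called lower and 0 higher, the members' median stayed between -0.60 and -0.51, and 4607 to 7338 genes were called over the whole table (6389 as reported). With 1 library left out at a time 5 to 8 members were called lower. Of 210 single-member values 182 kept their direction and side of the threshold, 10 lost the call, 13 gained it and 5 changed sign, all of them Gsr. These counts, and those of the other named genes below, include the alternative without a filter, which could not differ from the main fit. Gsr was at -0.012 with limma-voom, -0.00037 with edgeR and the replicate block, and -0.049 with a GC trend removed and the block, and ranged from -0.010 to 0.052 with 1 library left out. With the replicate block 8 members were called lower by limma and 9 by edgeR. Gclc gained its call in both, and the block in limma or edgeR changed no other call among the named genes. Slc7a11 was called by edgeR with the block (adjusted p 0.0214) and also without it (0.0168), and by limma-trend in neither case (0.0618 and 0.0697). With the length trend removed, adding the block restored the calls of Nqo1 and Gsta4 and gave one to Gclc (adjusted p 0.0118). Of 735 values of the other named genes 709 kept direction and call, 19 lost the call, 1 gained it and 6 changed sign. The sign changes came with the length trend removed, with and without the block: Park7 0.050, Bach1 -0.047 and Gstm5 0.12. The cause was not tested. Depth limits Slc7a11 most, with 10 reads in control 3.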
